A study of Mus musculus with 2 samples.

Results

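The regulators of G-protein signalling (RGS) examined here are 10 mouse genes, Rgs2, Rgs4, Rgs5, Rgs6, Rgs7, Rgs8, Rgs9, Rgs10, Rgs16 and Rgs17. They were taken by symbol from the 31252 genes in the deposited count matrix, which holds 21 genes with an Rgs name. The family was chosen because the difference of Rgs16 between the libraries is among the largest, so the difference of Rgs16 selected the set and is given as a description. RNA came from the ventral midbrain of mice aged 2 months, labelled as incipient congenic C57BL/6, in 1 library labelled Ctrl and 1 labelled OE. Both genotypes carry Slc6a3-Cre, which drives recombination from the dopamine transporter gene in dopaminergic neurons, and only the OE genotype carries CAG-S-COUP-TFII, the allele from which Cre starts the nuclear receptor COUP-TFII. In the breeding scheme of the study, control and OE littermates also inherit a floxed Tfam allele and a tdTomato reporter, which the labels do not name. The sources used here do not say whether a library is 1 mouse or a pool of mice.

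The libraries held 16984336 (labelled Ctrl) and 21326632 (labelled OE) counts. With 1 library per group no difference below has a replicate check, and none has a p-value. A log2 fold change is the OE-labelled library over the Ctrl-labelled library, after TMM scaling, a method of edgeR that evens out library size and composition, and a pseudocount of 0.5. The range printed with it is a 95% exact Clopper-Pearson interval, which takes in counting error alone and says nothing of how mice vary. Nr2f2, which encodes COUP-TFII, is the gene overexpressed in OE mice. It had 637 counts in the Ctrl-labelled library and 377 in the OE-labelled library (log2 fold change -1.07, interval -1.26 to -0.88), the direction opposite to the labels. The study measured the excess in isolated dopaminergic neurons, so whole tissue is an unlike sample for this check. The labels were kept, and if they were exchanged, every direction below would turn around. The labels give dopaminergic neurons as the cell type, whereas the tissue is the whole ventral midbrain. Markers of dopaminergic neurons were all detected, and Mbp, a myelin gene of oligodendrocytes, had 128974 and 139810 counts against 2499 and 9354 for Th, the dopamine-synthesising tyrosine hydroxylase.

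RGS proteins end G-protein signals. A receptor loads the alpha subunit of a G protein with GTP, and the RGS domain speeds the hydrolysis of that GTP, so that alpha and beta-gamma subunits rejoin and channels, adenylyl cyclases and phospholipases return to rest. The family is sorted by sequence into R4 proteins, which are small, R7 proteins, which work as a complex with the beta subunit Gnb5, and the smaller RZ and R12 branches, and in the midbrain its members act behind dopamine, opioid, GABA and glutamate receptors.

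Among the 10 genes, Rgs16 stood alone. It was 7.21-fold lower in the OE-labelled library, while the other 9 genes had log2 fold changes between -0.23 and 0.23. Past a log2 fold change of 0.2, 1 of the 10 genes was higher (Rgs2) and 2 were lower (Rgs16 and Rgs17). Over the 15246 genes averaging at least 10 counts, 17.9% were higher and 16.6% were lower past the same fold. Past a log2 fold change of 1, 0 of the 10 genes were higher and 1 was lower (Rgs16), against 1.53% higher and 1.28% lower over all genes. Nothing is read from these counts, since the same comparison chose the family. The median over the 10 genes was -0.095 and that over all genes 0.0046, and the middle 95% of all genes ran from -0.73 to 0.81. Under TMM scaling, counting intervals lay above 0 for Rgs2, below 0 for Rgs5, Rgs8, Rgs16 and Rgs17, and on both sides of 0 for the other 5. The intervals of Rgs4 and Rgs5 end so near 0, at 0.0033 and -0.0077, that another scaling can change their side.

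**Figure D1:**
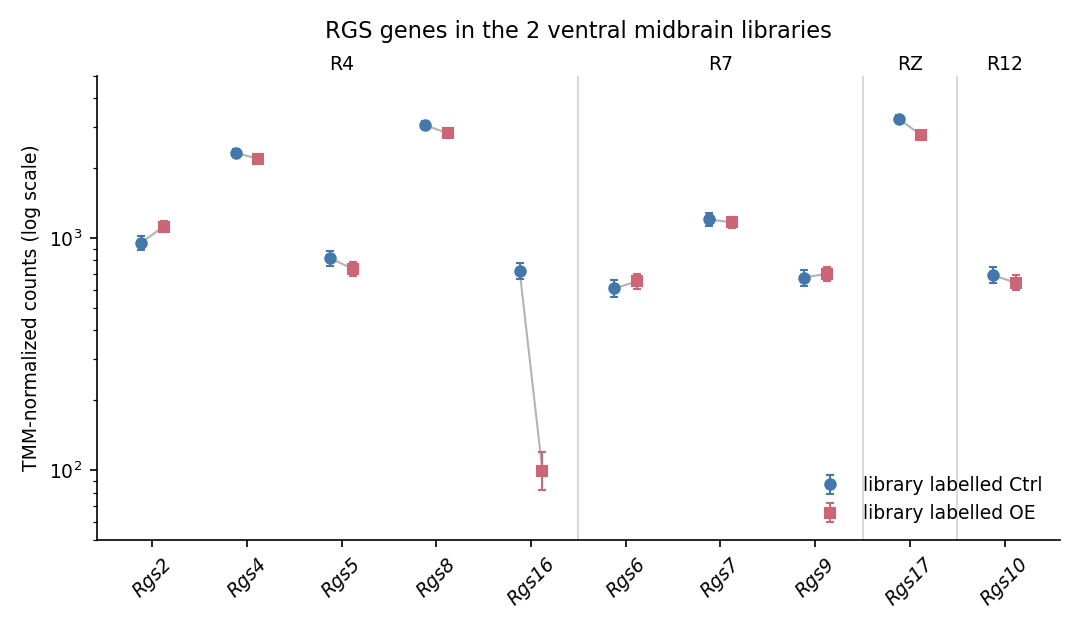
TMM-normalized counts (log scale) of the 10 RGS genes in the Ctrl-labelled library (circles) and the OE-labelled library (squares), grouped by subfamily, with 95% exact counting intervals as bars. Rgs16 goes from 721 to 99.6 normalized counts, and each of the other 9 genes stays close to its level in the Ctrl-labelled library.

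The R4 subfamily was represented by Rgs2, Rgs4, Rgs5, Rgs8 and Rgs16. Rgs16 (chr1:153740349-153745468, plus strand; GRCm38), a protein that acts on Gi and Gq subunits and is known for high expression in the thalamus and the suprachiasmatic nucleus, had 647 counts in the Ctrl-labelled library and 111 in the OE-labelled library. Its log2 fold change was -2.85 (interval -3.16 to -2.56), which placed it 19th from the lowest of the 15246 genes and 5th from the lowest of the 11735 genes averaging at least 100 counts. In bulk tissue such as this, fewer cells that express a gene and less RNA per cell cannot be told apart. The difference does not rest on the scaling between libraries, since ratios of counts within a library show it too. For every 100 counts of Rgs8 there were 23.6 counts of Rgs16 (interval 21.6 to 25.7) in the Ctrl-labelled library and 3.52 (interval 2.88 to 4.25) in the OE-labelled library. Against Rgs4 the ratio went from 31.0 to 4.53 per 100 counts, and against Rgs2 from 75.8 to 8.89. Rgs16 still had 111 counts in the OE-labelled library, a level well above 0.

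Rgs8 (chr1:153653025-153700323, plus strand), known from cerebellar Purkinje cells and for speeding the gating of G-protein-activated potassium channels, lies just before Rgs16 on the same strand, its start being at -87.3 kb from that of Rgs16. It had 2746 counts in the Ctrl-labelled library and 3155 in the OE-labelled library, a log2 fold change of -0.11 (interval -0.19 to -0.039). Rgs8 thus differed far less between the libraries than its neighbour Rgs16. Rgs4 (chr1:169741477-169747642, minus strand), an abundant brain regulator of Gi and Gq signals, had 2085 and 2448 counts and a log2 fold change of -0.082 (interval -0.17 to 0.0033), which was not separated from 0 at this depth. Rgs5 (chr1:169655501-169695813, plus strand), which is rich in pericytes, had 734 and 820 counts and a log2 fold change of -0.15 (interval -0.30 to -0.0077). Rgs4 and Rgs5 are also neighbours, and their ratio was close in both libraries, at 284 and 299 counts of Rgs4 per 100 counts of Rgs5.

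Rgs2 (chr1:143999338-144004161, minus strand), an inducible protein that limits Gq signalling, was the one member past a log2 fold change of 0.2 on the higher side. It had 854 counts in the Ctrl-labelled library and 1248 in the OE-labelled library, a log2 fold change of 0.23 (interval 0.11 to 0.36). Measured against Rgs8, which needs no scaling, it had 31.1 counts per 100 in the Ctrl-labelled library (interval 28.8 to 33.6) and 39.6 in the OE-labelled library (interval 37.0 to 42.2). These intervals do not meet, but Rgs8 itself was at -0.11 (interval -0.19 to -0.039), so the ratio takes in the difference of both genes. The value of Rgs2 was still modest beside all genes, since 84.9% of them had a lower log2 fold change.

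The R7 subfamily was represented by Rgs6, Rgs7 and Rgs9. Rgs6 (chr12:82588292-83162056, plus strand), present in dopaminergic neurons of the ventral midbrain, had 544 counts in the Ctrl-labelled library and 725 in the OE-labelled library, a log2 fold change of 0.10 (interval -0.061 to 0.26). Rgs7 (chr1:175059087-175492500, minus strand), a broadly neuronal member, had 1078 and 1303 counts and a log2 fold change of -0.040 (interval -0.16 to 0.078). Rgs9 (chr11:109225355-109298129, minus strand), which acts in photoreceptors and in dopamine signalling of the striatum, had 606 and 781 counts and a log2 fold change of 0.053 (interval -0.10 to 0.21). None of the 3 differences was detectable at this depth. Summed over the subfamily, normalized counts were 2483 and 2520, a log2 ratio of 0.021 (interval -0.060 to 0.10). The proportions inside the subfamily were also close, with 50.5 and 55.6 counts of Rgs6 and 56.2 and 59.9 counts of Rgs9 per 100 counts of Rgs7, and the intervals of the 2 libraries overlapped for both.

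Rgs17 stands for the RZ branch and Rgs10 for the R12 branch. Rgs17 (chr10:5825663-5922400, minus strand), a regulator of Gz and Gi subunits that associates with the mu opioid receptor, had 2925 counts in the Ctrl-labelled library and 3095 in the OE-labelled library. Its log2 fold change was -0.23 (interval -0.31 to -0.16), the lowest after Rgs16, and 14.1% of all genes were lower. Rgs10 (chr7:128373621-128418758, minus strand), a small member known from microglia, had 620 and 715 counts and a log2 fold change of -0.11 (interval -0.26 to 0.050), which was not separated from 0.

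**Figure D2:**
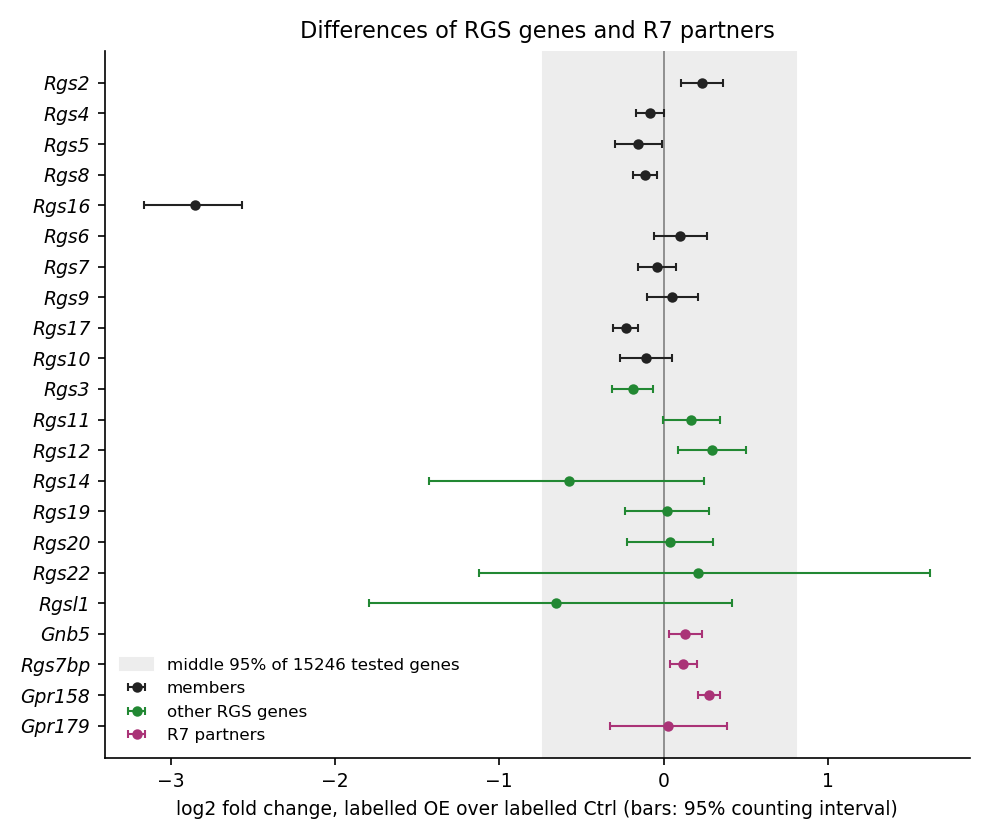
Log2 fold change (OE-labelled over Ctrl-labelled library) of the 10 RGS genes, 8 other RGS genes and 4 partners of the R7 subfamily, with 95% exact counting intervals as bars and the middle 95% of the 15246 genes as a grey band. Rgs16 at -2.85 is the one point outside the band of -0.73 to 0.81.

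Summed over the 10 genes, the libraries held 14311 (labelled Ctrl) and 12920 (labelled OE) normalized counts, a log2 ratio of -0.15 (interval -0.18 to -0.11). Without Rgs16 the sums were 13590 and 12820, a log2 ratio of -0.084 (interval -0.12 to -0.049). Rgs16 made up 5.04% of the counts of the 10 genes in the Ctrl-labelled library (exact interval 4.67% to 5.43%) and 0.771% in the OE-labelled library (exact interval 0.634% to 0.927%). The share of Rgs2 was 6.65% and 8.67%, and that of Rgs17 was 22.8% and 21.5%. Rgs8, which with Rgs17 gave the most counts, kept 21.4% and 21.9%. These are shares of counts and not of molecules, since a longer transcript yields more counts.

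Levels of different genes were compared as counts scaled by library size (CPM) per kilobase of the longest transcript that GENCODE marks as principal. In the Ctrl-labelled library, Rgs4 (41.7) and Rgs10 (41.5) led, followed by Rgs7 (30.0), Rgs17 (21.2) and Rgs8 (19.1), then by Rgs2 (16.6), Rgs16 (16.3), Rgs9 (15.4) and Rgs6 (14.6), and Rgs5 was last at 10.6 CPM per kb. Counting intervals of Rgs4 and Rgs10 overlapped, as did those of each pair of neighbours from Rgs2 to Rgs6. In the OE-labelled library, Rgs4 (39.0) and Rgs10 (38.1) again led and Rgs7 (28.9) followed, but Rgs16 was last at 2.23 CPM per kb, below Rgs5 at 9.39. Between them stood Rgs2 (19.4), Rgs17 (17.9), Rgs8 (17.5), Rgs9 (15.8) and Rgs6 (15.4). The order leans on the transcript chosen. By the shortest principal transcript, Rgs17 was at 104 and 87.9, Rgs7 at 44.8 and 43.1, and Rgs8 at 44.6 and 40.8 CPM per kb, while Rgs16, with 1 coding transcript, did not move.

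Of the 10 genes, 6 lie on chromosome 1, in the pairs Rgs8 with Rgs16 and Rgs5 with Rgs4, and with Rgs2 and Rgs7 apart. Besides Rgs16 itself, 8 measured genes that start within 500 kb of its start are described here, and their values ranged from -0.70 to 0.041. Glul, the glutamine synthetase of astrocytes, had 34645 and 44273 counts and a log2 fold change of 0.041. Lamc1, a laminin subunit, was at -0.28 (interval -0.41 to -0.15), and Dhx9, an RNA helicase, at -0.068. Shcbp1l at -0.70 and Rgsl1 at -0.65 rested on at most 33 counts in a library, and their intervals included 0. Of these genes Rgs16 was the one past a log2 fold change of 1. An antisense gene annotated across the 3′ part of Rgs16 has no row in the matrix and was not analysed here.

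**Figure D3:**
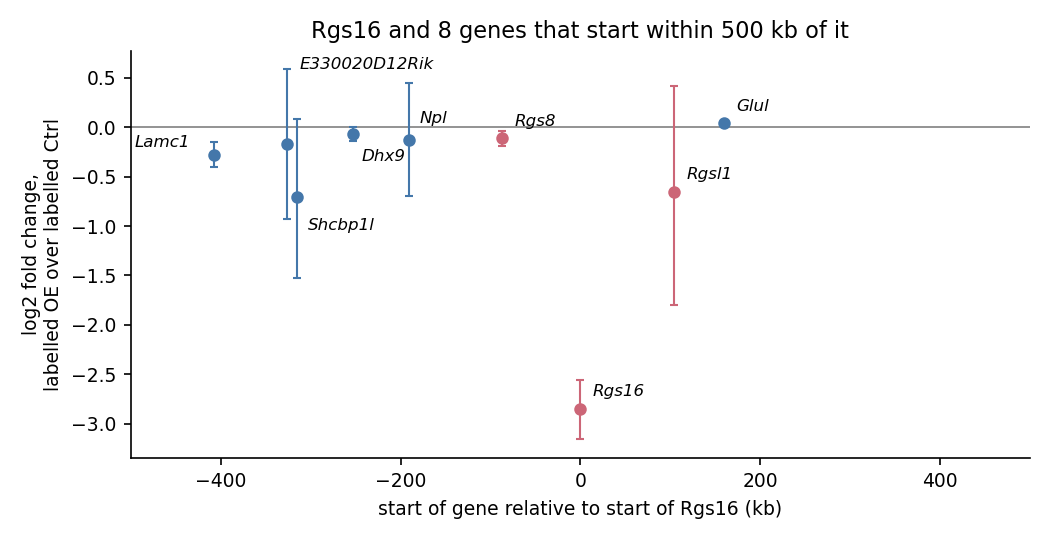
Log2 fold change (OE-labelled over Ctrl-labelled library) of 9 measured genes that start within 500 kb of Rgs16, itself included, against the distance of their start from that of Rgs16 in kb, with 95% exact counting intervals as bars and RGS genes in red. Rgs16 lies at -2.85, and the other 8 genes lie between -0.70 and 0.041.

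COUP-TFII binds direct repeats of the half-site AGGTCA, so the RefSeq promoters of the RGS genes (GRCm38.p6, from 250 bases before to 50 after a start) were searched for it on both strands. The 10 genes have 12 promoters. The half-site, AGGTCA or TGACCT, occurred in 1 of the 12, the third start of Rgs8, and in 16.2% of 32544 promoters of all genes. The direct repeat AGGTCANAGGTCA, of which the half-site is a part, occurred in 0 of the 12 and in 0.0399% of all promoters. The promoter of Rgs16 (chr1:153740103-153740402, plus strand), the member with the large difference, and that of Rgs8 (chr1:153665423-153665722, plus strand), its neighbour with the one match, are printed 5′ to 3′ with the half-site in capitals.
Rgs16: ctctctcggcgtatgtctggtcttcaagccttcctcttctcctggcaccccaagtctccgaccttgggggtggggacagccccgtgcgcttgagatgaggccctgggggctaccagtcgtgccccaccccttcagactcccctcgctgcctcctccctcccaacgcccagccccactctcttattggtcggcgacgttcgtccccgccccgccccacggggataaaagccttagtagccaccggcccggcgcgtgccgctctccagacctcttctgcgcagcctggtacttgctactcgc
Rgs8: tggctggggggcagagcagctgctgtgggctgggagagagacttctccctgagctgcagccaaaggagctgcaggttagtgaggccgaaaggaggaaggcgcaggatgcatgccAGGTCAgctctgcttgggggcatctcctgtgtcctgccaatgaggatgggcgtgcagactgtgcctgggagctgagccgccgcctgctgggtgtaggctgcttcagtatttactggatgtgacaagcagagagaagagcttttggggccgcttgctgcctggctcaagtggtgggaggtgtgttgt
The Rgs16 window holds no match to these letters, and 66.0% of its bases are G or C. A match is a string of letters and does not show binding, and a window without one says nothing about the factor elsewhere.

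Of the other RGS genes, 11 are in the matrix and 8 averaged at least 10 counts, with a median log2 fold change of 0.029. Past 0.2, 2 of the 8 were higher and 2 were lower. Rgs12, a large multidomain member, had 329 and 501 counts and a log2 fold change of 0.29 (interval 0.090 to 0.50), and Rgs22 was at 0.21 on 9 and 13 counts. Rgs14, known from hippocampal neurons, was at -0.58 on 29 and 24 counts, and Rgsl1 was at -0.65 on 18 and 14. Rgs3, an R4 relative, had 1000 and 1090 counts and a value of -0.19 (interval -0.31 to -0.064), the one interval below 0 in this group. Rgs11, the remaining R7 gene, was at 0.17 on 475 and 663 counts, and Rgs19 and Rgs20, of the RZ branch, were at 0.020 and 0.039. Rgs1 and Rgs18 had at most 3 counts in a library and Rgs13 had 0 in both, so these genes of immune and blood cells were hardly detected. No other gene with an Rgs name came near the difference of Rgs16.

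Of 5 partners of R7 proteins, 4 averaged at least 10 counts, and of these 1 was higher and 0 were lower past 0.2 in the OE-labelled library. Gnb5, the beta subunit that R7 proteins need for stability, had 1422 and 1936 counts and a log2 fold change of 0.13 (interval 0.032 to 0.23). Rgs7bp, the R7-binding protein, was at 0.12 on 2062 and 2785 counts. Gpr158, an orphan receptor that recruits Rgs7, had 3075 and 4626 counts and a log2 fold change of 0.28 (interval 0.21 to 0.34), the one partner past 0.2. Gpr179 was at 0.028 on 120 and 152 counts, and Rgs9bp, the photoreceptor anchor of Rgs9, had 4 and 1 counts. These 4 partners without Rgs9bp had a median of 0.13, and intervals lay above 0 for 3 of them, Gpr179 being the exception.

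The rest of the pathway was described by lists compiled from general knowledge, with earlier results of these data known. For G-protein alpha subunits, listed whether or not these RGS proteins act on them, 13 genes had a median of 0.056. Past 0.2, 2 were higher and 1 was lower. Gnaz, the target of Rgs17, had the highest value among those averaging at least 100 counts, 0.24 on 547 and 805 counts. Gna12 had the lowest, -0.19, and Gnas, the most abundant, was at 0.15. For beta and gamma subunits, 14 genes had a median of 0.016, with 4 higher (Gng3 at 0.32) and 1 lower (Gng12 at -0.21), and Gnb1, the most abundant, was at 0.039. Other genes with an RGS domain or a part in receptor desensitisation, listed with Gpsm1, Gpsm2 and Gpsm3, had a median of 0.0054 over 19 genes. Grk6 at 0.24 and Axin2 at -0.27 were the only values past 0.2, and the arrestin Arrb1 was at 0.059. None of these genes passed a log2 fold change of 1.

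Receptors and effectors were more spread. Of 35 listed receptors, most of them coupled to Gi or Gq, 8 were higher and 11 lower past 0.2, and the median was -0.029. Ntsr1, the neurotensin receptor of dopaminergic neurons, had 510 and 1461 counts and a log2 fold change of 1.20, Grm8 was at -0.60 and Gabbr1 at -0.014. Of 19 effectors, 2 were higher and 7 lower past 0.2, with a median of 0.0086. Kcnj6, a potassium channel subunit opened by Gi signals in dopaminergic neurons, had 197 and 454 counts and a value of 0.89. Adcy1, an adenylyl cyclase, was at -0.37. Prkcd, a protein kinase C gene that is also a thalamic marker, had 1156 and 262 counts and a value of -2.45, the one effector past a log2 fold change of 1.

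Markers of cells and regions moved between the libraries, and each list is set beside the member it bears on. These lists were chosen with earlier results of these data known, so a shared direction within a list is a description. Of all 15246 genes, 7782 had a value above 0 and 7464 a value below 0. For Rgs16 the list was that of the thalamus, of which 18 of 18 genes were lower in the OE-labelled library. Past 0.2 there were 15 and past 1 there were 10, and the median of the list was -1.09. Its summed normalized counts were 29961 and 20045. Gbx2 had 29.9 counts in the Ctrl-labelled library and 0 in the OE-labelled library. Against a floor of 3 counts in the OE-labelled library its bound was 12.4-fold lower, and its counting interval reached up to -3.25. Ramp3 was at -3.50, Tcf7l2 at -2.78 and Slc17a6, the most abundant, at -0.23, while Zfhx3 was at -0.021. With Gbx2 at its bound, Ramp3 and Gbx2 were the 2 thalamic genes with a lower value than Rgs16. The part of thalamic tissue in the difference of Rgs16 was not tested.

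For Rgs6 the list was that of dopaminergic neurons, in which 18 of 18 genes were higher in the OE-labelled library, 16 of them past 1, with a median of 1.35. Summed normalized counts were 30394 and 72394. En2 was at 2.19, Nr4a2 at 0.79 and Aldh1a1, the most abundant, at 0.83, and none of the markers was at 0 in either library. Rgs6, at 0.10, had no such difference. For Rgs5, pericyte and smooth muscle markers had a median of -0.30, with 8 of 12 lower and 0 higher past 0.2 and summed normalized counts of 4988 and 3805. Among them Acta2 was at -0.97, Vtn at -0.48 and Cspg4 at -0.061. Endothelial markers had a median of -0.22, with 5 of 9 lower and 0 higher past 0.2, summed normalized counts of 6367 and 5678, Kdr at -0.40, Slco1a4 at -0.32 and Ly6c1 at 0.19. The value of Rgs5, -0.15, was nearer to 0 than both medians.

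For Rgs10, microglial markers had a median of -0.23, with 6 of 12 lower and 0 higher past 0.2 and summed normalized counts of 7381 and 6053. Csf1r was at -0.57 and C1qa at -0.051, beside -0.11 for Rgs10. For Rgs9, striatal markers had a median of 0.097, with 6 of 12 higher and 1 lower past 0.2 and summed normalized counts of 4950 and 5339. Counting intervals lay above 0 for 3 of these 12 markers and below 0 for 2. Ppp1r1b was at 0.40 and Pde10a at -0.16, beside 0.053 for Rgs9. For Rgs2, 10 immediate early genes had a median of 0.083, with 4 higher and 1 lower past 0.2 and summed normalized counts of 2044 and 2079. Btg2 was at 0.47 and Egr1 at -0.27, beside 0.23 for Rgs2.

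For the neuronal members in general, 12 markers of all neurons had a median of 0.12, with 5 higher and 1 lower past 0.2, Nefl at 0.54, Snap25 at 0.055 and Rbfox3 at -0.21. Astrocyte markers had a median of -0.029, with 1 of 10 lower and 0 higher past 0.2, Gjb6 at 0.14, Slc1a2 at -0.17 and Aqp4 at -0.22. Oligodendrocyte markers were lower in 12 of 12 cases, 9 of them past 0.2, with a median of -0.32, Opalin at -0.78, Mbp at -0.20 and Mobp at -0.18. None of the markers in these lists was at 0 in both libraries, and their part in the values of the RGS genes was not tested.

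**Figure D4:**
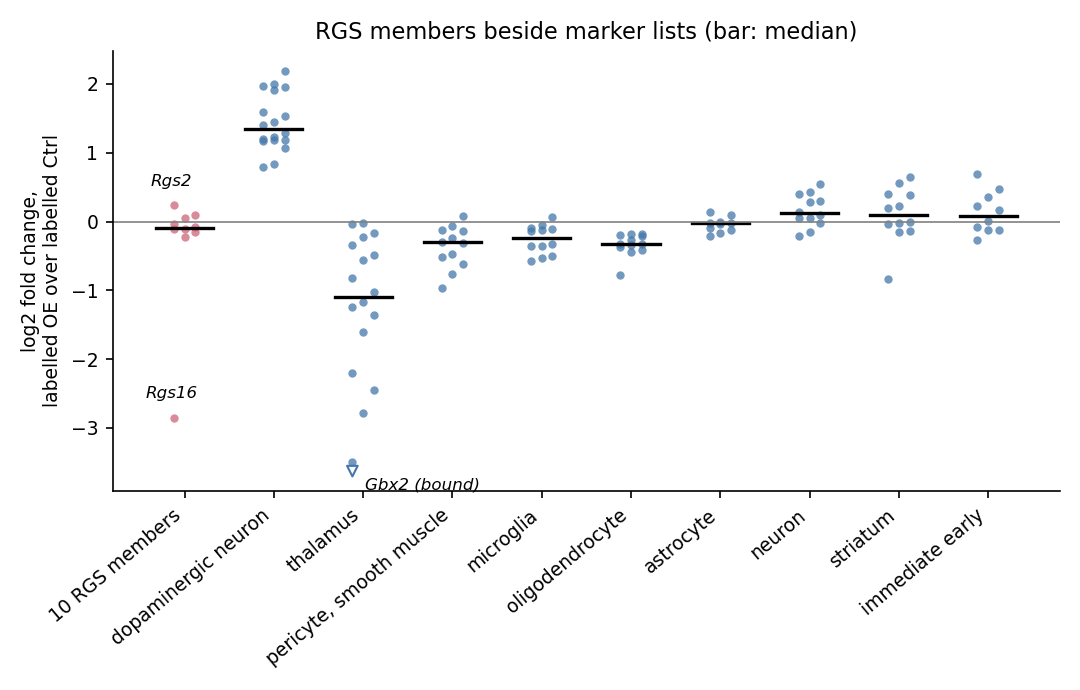
Log2 fold change (OE-labelled over Ctrl-labelled library) of the 10 RGS genes and of the genes of 9 marker lists, with the median of each as a bar and Gbx2, at 0 in the OE-labelled library, drawn as an open triangle at its bound. Rgs16 at -2.85 lies within the span of the thalamus list, whose median is -1.09, and the other 9 RGS genes lie between -0.23 and 0.23.

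The genes with a log2 fold change nearest to that of Rgs16, among those averaging at least 100 counts, were Shox2, Tcf7l2, Ttr, Vipr2 and Slc17a7. Likeness here is the distance between log2 fold changes over 2 libraries, a thin measure. Shox2, a homeobox transcription factor, had 589 and 102 counts and a value of -2.84. Tcf7l2, a transcription factor of Wnt signalling, had 2204 and 398 counts and a value of -2.78, and Ttr, the thyroid hormone carrier of the choroid plexus, had 426 and 67 counts and a value of -2.97. Vipr2, a receptor for vasoactive intestinal peptide, had 199 and 42 counts and a value of -2.54, and Slc17a7, a vesicular glutamate transporter, had 231 and 50 counts and a value of -2.51. The intervals of all 5 overlapped that of Rgs16, and nothing is read from this, since nearness to Rgs16 chose these genes.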

How the data were processed

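Total RNA from ventral midbrain was made into stranded poly(A) libraries and read in pairs. The authors deposited RSEM expected counts per gene, unscaled, from a company pipeline. The submitters' processing notes name build mm10, and the aligner, annotation and strand setting are not given in the sources used here. Both sample columns were used, and 95.4% of their values, those at 0 included, were exactly whole. Expected counts were scaled by TMM (edgeR 4.0.16, R 4.3.3), and log2 fold changes were formed with 0.5 normalized counts added, for genes averaging at least 10 counts. Intervals came from the exact binomial split of the rounded counts (scipy 1.17.1). The method was run on simulated Poisson counts, which hold counting error alone and no variation between mice. That run checks the calculation and not the assumption behind the intervals. With 1 library per group no test between genotypes was run. The RGS genes and all gene lists were chosen with earlier results of these data known. Named genes are the 10 members, all other RGS genes and R7 partners, the lowest, highest and most abundant gene of every other list (extremes among genes averaging at least 100 counts), Nr2f2 and the 5 genes nearest to Rgs16. Th, Gbx2 and the genes around Rgs16 were named outside this rule, after their values were seen. A few genes that these choices would name are not reported here. Drd1a, Drd2 and Prkcd are each in 2 lists. Subfamilies follow general knowledge. Positions and lengths came from GENCODE M21 (GRCm38) and promoters from RefSeq (GRCm38.p6), and all 10 symbols matched both. As alternatives, libraries were scaled by DESeq2 1.42.0 size factors, total counts or the upper quartile, and a pseudocount of 5, other count minimums and an interval that leaves out 0 were tried.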

Additional observations from a re-analysis of the deposited data

How the results depend on the processing

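No paired analysis was possible because Ctrl and OE have 1 library each, and for the same reason no library could be left out. Under the 3 other scalings and a pseudocount of 5, all 10 RGS genes and Nr2f2 kept their direction and their side of log2 0.2 and log2 1. Rgs16 ranged from -2.87 to -2.80, Rgs2 from 0.22 to 0.25 and Rgs17 from -0.25 to -0.22, and the summed level of the 10 genes from -0.16 to -0.13. Rgs2 and Rgs17 lie close to 0.2, so their place past that fold is a matter of a small margin. Counts over all genes depended on the count minimum. With every gene that had a count, 4513 were higher and 4497 lower past 0.2, and 1378 and 1294 past 1. With an average of 100 counts or more, these were 1522 and 1377, and 44 and 30. An interval that leaves out 0 left 1509 higher and 1396 lower past 0.2, and a pseudocount of 5 brought the genes lower past 1 from 195 to 124. Of 114 list medians computed under alternatives, 109 moved by at most 0.1. With an average of 100 counts or more, receptors went to -0.14, thalamus to -0.92, striatum to -0.0067 and immediate early genes to -0.076, and with every gene that had a count immediate early genes went to 0.19. Under TMM scaling the intervals of Rgs4, Rgs6, Rgs7, Rgs9 and Rgs10 include 0, so their differences were not separated from 0. Intervals were not formed under the other scalings, and those of Rgs4 and Rgs5 end near enough to 0 to change side.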
